A study of Citrullus lanatus with 30 samples.

Results

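Genes that the deposited annotation describes as enzymes between the last common isoprenoid precursor and lycopene were followed in watermelon (Citrullus lanatus) flesh. They are 5 of the table's 22596 genes and were chosen by their identifiers and descriptions, with earlier results of these data known. Phytoene synthase is represented by 3 of them, Cla97C01G008760 (described as phytoene synthase, with no number), Cla97C02G050140 (phytoene synthase 2) and Cla97C07G137500 (phytoene synthase 3). The other members are Cla97C02G037750 (phytoene desaturase 3) and Cla97C06G118930 (zeta-carotene desaturase). Further genes described for these steps, phytoene desaturases and isomerases among them, are not members and are given further below.

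Flesh RNA was sequenced from fruits of a line labelled clnor and from wild type (WT) fruits, at ages of 10, 18, 26, 34 or 42 days after pollination (DAP). Each of the 10 groups has 3 libraries, which makes 30 in all. The labels name clnor as a mutant and give no allele, background cultivar or plant for either genotype, and whether clnor is 1 line is not given in the sources used here. No description in the table names a NOR gene, so the mutated gene was not checked here. The labels do not say that the libraries of a group came from separate fruits, so p-values here set a difference against a spread between libraries that may be technical.

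Phytoene synthase joins a pair of geranylgeranyl diphosphate molecules into phytoene, the first colourless carotenoid, and is widely regarded as the entry step of the pathway. Phytoene desaturase and zeta-carotene desaturase then add double bonds, with isomerases (Z-ISO and the carotenoid isomerase CRTISO) setting their geometry, to give lycopene, the red pigment of watermelon flesh. Plants often carry several phytoene synthase genes that serve different organs, and in tomato 1 of them is known as the fruit gene. NOR, or non-ripening, is known in tomato as a NAC transcription factor needed for ripening.

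Levels are given in TPM, an abundance normalized for transcript length and library size. Differences are given in log2(TPM + 1), on which the change of a low gene looks smaller than it is. Differences were tested with limma over all 16503 genes that reached 1 TPM in 3 or more of 30 libraries, and a gene was called at a Benjamini-Hochberg adjusted p below 0.05. All 5 members passed that filter, and phytoene synthase 2 passed it only through clnor libraries. TPM keeps no sequencing depth, so the precision of low values is unknown. In flesh samples, fewer cells of a type and less RNA per cell cannot be told apart.

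The libraries did not all lie nearest their own group. By correlation across tested genes, which are not independent replicates, 5 of 30 libraries were closer to another group's mean than to the mean of their own other libraries. The own mean held fewer libraries than the other means, which can lower the correlation with the own group. clnor 18 DAP replicate 3 lay nearest WT 18 DAP (r = 0.977, own group 0.942) and WT 18 DAP replicate 3 lay nearest clnor 18 DAP (r = 0.969, own group 0.945), so results at 18 DAP are also given without these libraries. Both were picked for their likeness to the other genotype, so leaving them out tends to widen genotype differences. Values without them, here and below, are a description and add no support. Whether these 2 libraries were exchanged cannot be checked from the labels and was not tested, so the values at 18 DAP stand as labelled. The others were clnor 10 DAP replicate 1, nearest WT 10 DAP, clnor 10 DAP replicate 3, nearest clnor 18 DAP, and clnor 34 DAP replicate 2, nearest clnor 42 DAP. All 7 genes of a flesh list (alkaline alpha-galactosidases, monosaccharide-sensing proteins and a molybdate-anion transporter) averaged at least 1 TPM in every group. Between 56 and 67 genes of a seed list of 138 did so in each group as well. This low bar is therefore no test of the tissue sampled.

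Phytoene synthase Cla97C01G008760 was lower in clnor at 18, 26, 34 and 42 DAP, and at 34 DAP its clnor mean was 10.1% of the WT mean. At 10 DAP the libraries read 25.75, 14.29 and 13.99 TPM in clnor, against 26.14, 32.46 and 47.9 TPM in WT. At 18 DAP they read 21.81, 24.97 and 96.81 TPM in clnor, against 125.69, 231.65 and 104.3 TPM in WT. The 96.81 TPM belongs to clnor replicate 3, the library nearest WT, and the 104.3 TPM to WT replicate 3, the library nearest clnor.

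At 26 DAP the gene read 17.47, 24.49 and 15.33 TPM in clnor, against 79.03, 85.74 and 102.6 TPM in WT. At 34 DAP it read 28.06, 31.85 and 25.58 TPM in clnor, against 263.53, 276.49 and 303.75 TPM in WT. At 42 DAP it read 53.44, 49.03 and 52.08 TPM in clnor, against 214.99, 256.61 and 213.93 TPM in WT. At each of the 5 ages every clnor library lay below every WT library, although at 10 DAP the nearest values, 25.75 and 26.14 TPM, almost met. How many of all genes separate in this way was not counted, and groups this small can separate without a difference. The desaturase members did so at 26 DAP without being called. Lack of overlap is therefore given, here and below, as a description and not as a test.

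**Figure D1:**
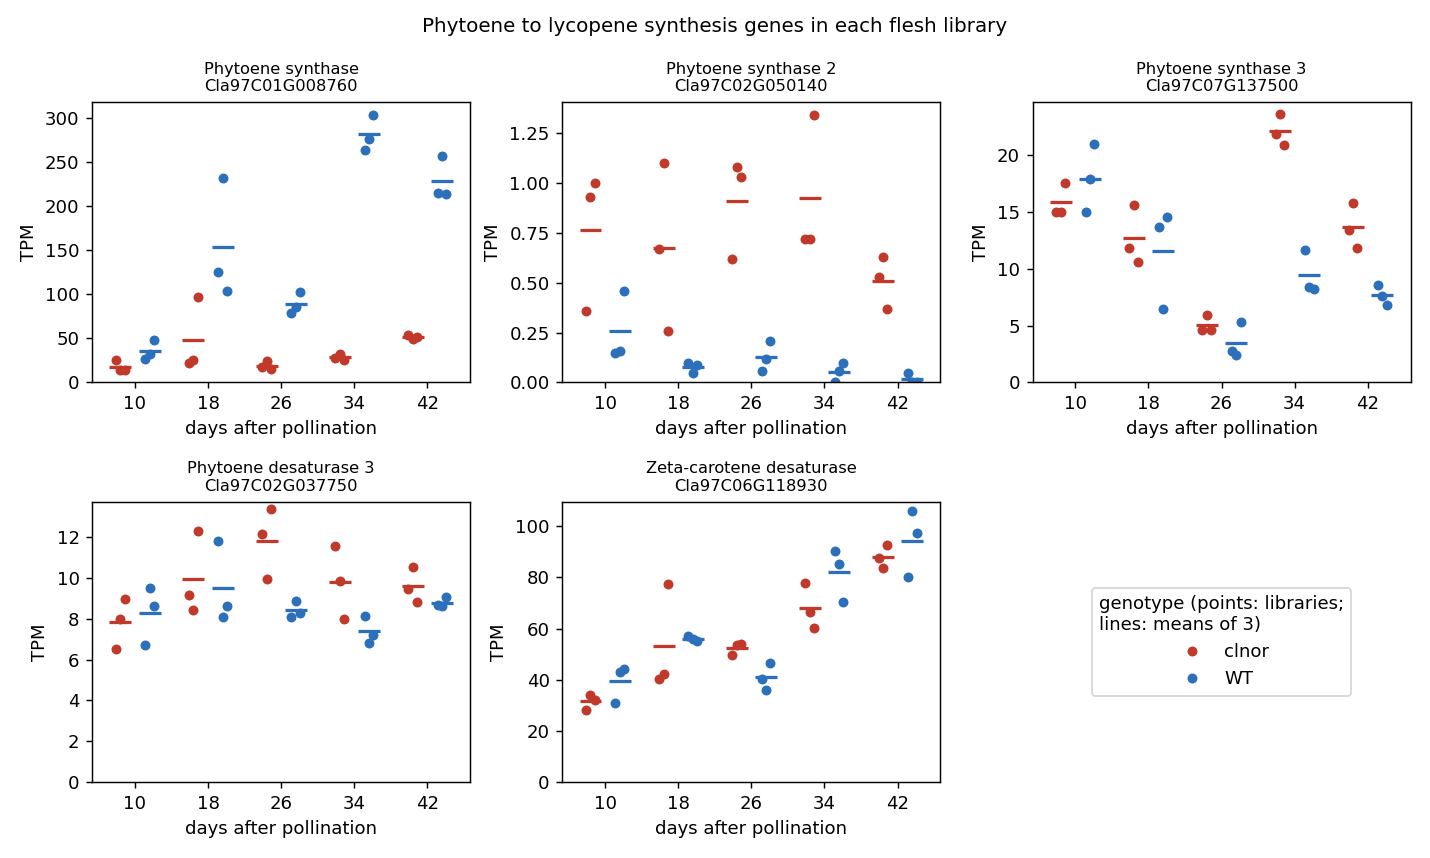
TPM (linear axis from 0) of the 5 genes in each library (points) with the mean of 3 (lines), by days after pollination, clnor in red left of WT in blue. Phytoene synthase Cla97C01G008760 stands at 25.58 to 31.85 TPM in clnor and at 263.53 to 303.75 TPM in WT at 34 DAP, while zeta-carotene desaturase has its highest mean at 42 DAP in both genotypes.

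The difference, clnor minus WT on the log2(TPM + 1) scale, was -0.95 at 10 DAP (limma adjusted p 0.316), -1.91 at 18 DAP (adjusted p 0.0135) and -2.18 at 26 DAP (adjusted p 3.45e-04). It was -3.26 at 34 DAP (SE 0.374, 95% interval -4.04 to -2.49, adjusted p 6.73e-07) and -2.12 at 42 DAP (adjusted p 1.36e-04). Averaged over the 5 ages it was -2.09 (SE 0.167, adjusted p 1.49e-09), and 82 of the 16503 tested genes had a more negative average. The clnor mean was 50.7% of the WT mean at 10 DAP, 31.1% at 18 DAP, 21.4% at 26 DAP and 22.5% at 42 DAP.

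At 18 DAP the call rested on the libraries used. It was lost in a fit of the 2 groups alone (adjusted p 0.57), without clnor replicate 1 (-1.53, adjusted p 0.111) or 2 (-1.63, adjusted p 0.153) and without WT replicate 2 (-1.58, adjusted p 0.146). Without both replicate 3 libraries the difference was -2.82 (limma adjusted p 2.14e-06), and the average over ages was -2.27. Such a widening was favoured by how these libraries were picked and is no support. At 26, 34 and 42 DAP and in the average the gene stayed called with each library left out and under each other setting tried.

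Read against all tested genes, these calls stand beside rising shares. At 10 DAP 0 of 5 members were called by limma, with 2 at an unadjusted p below 0.05, where 0.248% of genes were called higher and 0.224% lower in clnor. At 18 DAP 1 member was called, lower, where 1.38% were higher and 0.97% lower. At 26 DAP 1 member was called higher and 1 lower (9.66% and 5.8% of all genes), and at 34 DAP 2 higher and 1 lower (27.4% and 12.1%). At 42 DAP 2 were called higher and 1 lower (18.8% and 13.8%), and so were 2 and 1 in the average over ages (31.8% and 16.4%). Of these higher calls, 1 at each of 26, 34 and 42 DAP and in the average is phytoene synthase 2, Cla97C02G050140, which entered the test only through clnor libraries. The others are phytoene synthase 3, 1 call each at 34 and 42 DAP and in the average. In the average, 5245 genes were called higher and 2713 lower as deposited, and 3662 higher and 4053 lower after quantile normalization. At 18, 26, 34 and 42 DAP that normalization also moved the share of calls that were higher, to 39.2%, 48.2%, 49.1% and 46.3%, against 58.7%, 62.5%, 69.4% and 57.7% as deposited. At 34 DAP the median difference of all genes moved from 0.20 on the deposited values to -0.01 with quantile normalization, where Cla97C01G008760 stood at -3.24 (adjusted p 1.23e-06).

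**Figure D2:**
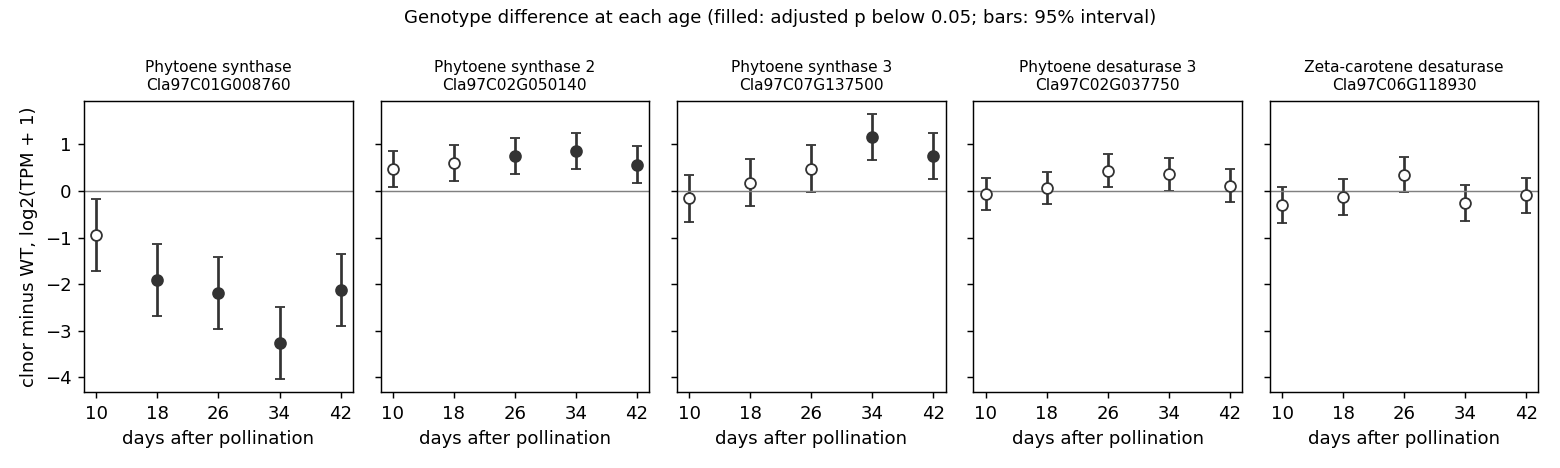
Difference of clnor minus WT in log2(TPM + 1) at each age for the 5 genes, with 95% intervals from limma; filled points are called at adjusted p below 0.05. Phytoene synthase Cla97C01G008760 lies below 0 throughout and furthest at 34 DAP (-3.26), whereas phytoene synthase 3 lies at 1.16 there and the desaturases have no filled point.

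The genotype difference of Cla97C01G008760 itself changed with age. An F test over the 4 later ages of its change since 10 DAP gave F = 4.84 (adjusted p 0.0312), where 23.1% of genes were called. The change from 10 to 34 DAP was -2.31 (SE 0.529, adjusted p 0.00319), where 23.9% of genes were called, and it was called with each library left out. The changes to 18, 26 and 42 DAP were -0.96, -1.23 and -1.17 and were not called (adjusted p 0.555, 0.203 and 0.125). The first was called without clnor 18 DAP replicate 3 (-1.63, adjusted p 0.0316) and the last in a fit of the 4 groups alone (adjusted p 0.0418). The F test lost its call in 8 of 30 leave-outs, namely without clnor 10 DAP replicate 1 (F = 3.72), clnor 34 DAP replicate 1 (4.11) or 3 (3.92), WT 10 DAP replicate 1 (3.76) or 2 (4.04), or WT 34 DAP replicate 1 (4.30), 2 (4.17) or 3 (3.96).

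By the test, Cla97C01G008760 was higher than at 10 DAP in WT at every later age and in clnor only at 42 DAP. In WT its mean fell from 18 to 26 DAP and from 34 to 42 DAP, and neither step was called. In clnor the mean was 18.0 ± 6.71 TPM at 10 DAP, 47.9 ± 42.4 at 18 DAP, 19.1 ± 4.79 at 26 DAP, 28.5 ± 3.16 at 34 DAP and 51.5 ± 2.26 at 42 DAP (SD, n = 3 each). In WT it was 35.5 ± 11.2, 153.9 ± 68.2, 89.1 ± 12.1, 281.3 ± 20.5 and 228.5 ± 24.3 TPM at the same ages. The highest group mean was 2.86 times the lowest in clnor and 7.92 times in WT.

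In clnor, Cla97C01G008760 was called above 10 DAP only at 42 DAP (1.52, adjusted p 0.00272). The clnor differences from 10 DAP were 1.08 at 18 DAP (adjusted p 0.0775), 0.11 at 26 DAP (0.856) and 0.68 at 34 DAP (0.197). The 18 DAP one was called without clnor 18 DAP replicate 1 (1.46, adjusted p 0.033) or 2 (1.37, adjusted p 0.0456). In WT all 4 later ages were called above 10 DAP, by 2.04 at 18 DAP (adjusted p 4.40e-04), 1.34 at 26 DAP (0.00646), 2.99 at 34 DAP (1.21e-06) and 2.69 at 42 DAP (4.05e-06). The step from 26 to 34 DAP in WT was called as well (1.65, adjusted p 0.00168).

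In order of the means, WT at 34 DAP was highest, then WT at 42, 18 and 26 DAP, clnor at 42 and 18 DAP, WT at 10 DAP, and clnor at 34, 26 and 10 DAP. Neighbours in this order overlapped between WT 42 and 18 DAP, between clnor 42 and 18 DAP, between clnor 18 and WT 10 DAP, between WT 10 and clnor 34 DAP, and between clnor 26 and 10 DAP. Set against younger WT fruit, clnor at 42 DAP differed from WT at 26 DAP by -0.77 (95% interval -1.55 to 0.00, adjusted p 0.129). That difference was called in a fit of the 2 groups alone (adjusted p 0.0102). Between clnor at 34 DAP and WT at 18 DAP the difference of Cla97C01G008760 was -2.31 (adjusted p 7.55e-05), and -2.55 without both 18 DAP replicate 3 libraries.

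Shares of all genes called in these age comparisons were large. Against 10 DAP they were 7.08% at 18 DAP, 34.8% at 26 DAP, 24.2% at 34 DAP and 39% at 42 DAP in clnor. In WT they were 32.3% at 18 DAP, 41% at 26 DAP, 48.5% at 34 DAP and 50.9% at 42 DAP. Of the 5 members, 1, 3, 1 and 2 were called at these ages in clnor and 3, 2, 3 and 3 in WT. The step from 18 to 26 DAP called 31.5% of genes in clnor and 36.9% in WT, with 1 member each. The step from 26 to 34 DAP called 15.8% in clnor, with 1 member, and 33% in WT, with 3 members. Between clnor at 42 DAP and WT at 26 DAP 28.5% of genes and 2 members were called, and between clnor at 34 DAP and WT at 18 DAP 34.2% and 3 members. Of these last 3 members, 1 is phytoene synthase 2, Cla97C02G050140, which entered the test only through clnor libraries. It was higher in clnor there, by 0.67 to 0.89 with 1 library left out.

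Phytoene synthase 3, Cla97C07G137500, differed the other way at the late ages. At 34 DAP it read 21.91, 23.66 and 20.92 TPM in clnor, against 11.68, 8.44 and 8.25 TPM in WT. At 42 DAP it read 13.44, 15.79 and 11.88 TPM in clnor, against 8.61, 7.62 and 6.86 TPM in WT. The genotypes did not overlap at either age. The difference was 1.16 at 34 DAP (SE 0.239, adjusted p 5.26e-04), called with each library left out and under each setting, and 0.75 at 42 DAP (adjusted p 0.0181). The 42 DAP call was lost without clnor replicate 2 (0.65, adjusted p 0.0703), without WT replicate 3 (0.68, adjusted p 0.0712) and after quantile normalization (0.55, adjusted p 0.0632).

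At the earlier ages phytoene synthase 3 was not called between the genotypes. Its libraries read 15.03, 15.01 and 17.56 TPM in clnor, against 14.99, 17.89 and 21.02 TPM in WT at 10 DAP, and 11.88, 15.66 and 10.64 TPM in clnor, against 13.67, 6.48 and 14.6 TPM in WT at 18 DAP. At 26 DAP they read 4.62, 5.96 and 4.6 TPM in clnor, against 2.75, 2.4 and 5.32 TPM in WT. The groups overlapped at all 3 of these ages. The differences were -0.16, 0.18 and 0.48 (adjusted p 0.907, 0.735 and 0.191). The last was called without WT 26 DAP replicate 3 (0.76, adjusted p 0.0363). Without both replicate 3 libraries the 18 DAP difference of Cla97C07G137500 was 0.48 (adjusted p 0.244) and the average 0.54. Averaged over ages the difference was 0.48 (SE 0.107, adjusted p 7.02e-04), and 0.30 after quantile normalization (adjusted p 0.0174).

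The F test over ages gave F = 4.52 for phytoene synthase 3, Cla97C07G137500 (adjusted p 0.038), and the change from 10 to 34 DAP was 1.32 (SE 0.339, adjusted p 0.00697). The F call was lost in 13 of 30 leave-outs (F 3.62 to 4.28), namely without clnor 10 DAP replicate 1 or 2, clnor 18 DAP replicate 1, any clnor 34 DAP library, clnor 42 DAP replicate 1, or WT replicate 2 or 3 at 10, 34 or 42 DAP. The change to 34 DAP was called with each library left out. The changes to 18, 26 and 42 DAP were 0.34, 0.64 and 0.91 and were not called (adjusted p 0.764, 0.311 and 0.0608), the last called in a fit of the 4 groups alone (adjusted p 0.0207).

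With age, phytoene synthase 3 (Cla97C07G137500) reached its lowest mean at 26 DAP in each genotype, 5.06 ± 0.779 TPM in clnor and 3.49 ± 1.59 TPM in WT (SD, n = 3 each). Against 10 DAP that was -1.48 in clnor (adjusted p 7.65e-05) and -2.12 in WT (adjusted p 7.97e-07). From 26 to 34 DAP it rose by 1.94 in clnor (adjusted p 1.83e-05) and by 1.26 in WT (adjusted p 3.46e-04), and these steps differed by 0.68 without passing the test (adjusted p 0.247). Against 10 DAP, clnor did not pass at 34 DAP (0.46, adjusted p 0.173) or 42 DAP (-0.20, adjusted p 0.53), whereas WT was lower at 34 DAP (-0.86, adjusted p 0.00481) and 42 DAP (-1.12, adjusted p 4.92e-04). In clnor 18 DAP stood at -0.31 from 10 DAP (adjusted p 0.441). At 18 DAP WT was called below 10 DAP (-0.65, adjusted p 0.0403), a call lost in a fit of the 2 groups alone (0.187) and without WT 10 DAP replicate 2 (0.0798) or 3 (0.143) or WT 18 DAP replicate 2 (-0.31, adjusted p 0.337). The step from 18 to 26 DAP was called in clnor (-1.17, adjusted p 8.67e-04) and in WT (-1.47, adjusted p 6.80e-05).

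By mean level, clnor at 34 DAP was the highest of the 10 groups for Cla97C07G137500 and WT at 26 DAP the lowest, and in the order of means the only neighbours whose libraries did not overlap were WT 42 DAP (7.70 ± 0.878 TPM) and clnor 26 DAP. Against younger WT fruit, clnor at 42 DAP stood 1.76 above WT at 26 DAP (adjusted p 1.23e-05). clnor at 34 DAP stood 0.95 above WT at 18 DAP (adjusted p 0.00392), a call lost in a fit of the 2 groups alone (adjusted p 0.0839) and kept without both 18 DAP replicate 3 libraries (1.14).

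Phytoene synthase 2, Cla97C02G050140, was near the floor of the table throughout. It ranged from 0.26 to 1.34 TPM over the 15 clnor libraries (median 0.72) and from 0 to 0.46 TPM over the 15 WT libraries (median 0.09), with 3 WT libraries listed at 0. It entered the test through 5 clnor libraries at 1 TPM or more, which no WT library reached, so its place among the tested genes already used the difference and its calls are given as a description. At 34 DAP it read 0.72, 0.72 and 1.34 TPM in clnor, against 0, 0.06 and 0.1 TPM in WT.

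At 42 DAP phytoene synthase 2 (Cla97C02G050140) read 0.53, 0.63 and 0.37 TPM in clnor, against 0.05, 0 and 0 TPM in WT. The genotypes overlapped only at 10 DAP, where the clnor libraries read 0.36, 0.93 and 1 TPM and the WT libraries 0.15, 0.16 and 0.46 TPM. At 18 DAP they read 0.67, 1.1 and 0.26 TPM in clnor, against 0.1, 0.05 and 0.09 TPM in WT. At 26 DAP they read 0.62, 1.08 and 1.03 TPM in clnor, against 0.06, 0.12 and 0.21 TPM in WT. It was called higher at 26 DAP (0.75, adjusted p 0.00868), 34 DAP (0.86, adjusted p 9.85e-04) and 42 DAP (0.57, adjusted p 0.024), and on average (0.65, adjusted p 1.37e-06). The differences at 10 and 18 DAP were 0.48 and 0.60 (adjusted p 0.326 and 0.0808). At this level the size depended on the pseudocount: with 0.1 in place of 1 the average was 2.10. After quantile normalization the 26 and 42 DAP calls were lost (adjusted p 0.127 and 0.0574), and the 42 DAP call was also lost without clnor replicate 1 (0.0617) or 2 (0.0754) or WT replicate 2 (0.059) or 3 (0.0655). At 18 DAP a call was gained without clnor replicate 3 (0.79, adjusted p 0.00938), without both replicate 3 libraries (0.80, adjusted p 0.0125) and with a pseudocount of 0.1 (adjusted p 0.044).

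Summed over the 3 genes, phytoene synthase transcripts averaged 34.6 ± 5.75 TPM in clnor and 53.7 ± 14.3 TPM in WT at 10 DAP, and 61.3 ± 40.4 TPM in clnor and 165.5 ± 63.7 TPM in WT at 18 DAP. By library, replicates 1 to 3 in turn, the 18 DAP sums were 34.4, 41.7 and 107.7 TPM in clnor, against 139.5, 238.2 and 119.0 TPM in WT, so without the replicate 3 libraries the groups lay further apart. At 26 DAP the sums were 25.1 ± 5.67 TPM in clnor and 92.7 ± 13.7 TPM in WT. At 34 DAP they were 51.6 ± 4.27 TPM in clnor and 290.8 ± 19.1 TPM in WT, and at 42 DAP 65.7 ± 1.56 TPM in clnor and 236.2 ± 24.3 TPM in WT (SD, n = 3 each). The make-up of the sum differed as well. In clnor, Cla97C01G008760 gave 53.5 to 56.6% of it at 34 DAP and 74.9 to 81.0% at 42 DAP, against 95.8 to 97.3% and 96.1 to 97.1% in WT at those ages. At 10 DAP the shares were 43.0 to 62.6% in clnor and 63.3 to 69.04% in WT. At 18 DAP they were 63.5, 59.8 and 89.9% in clnor, against 90.1, 97.3 and 87.7% in WT. Phytoene synthase 3 exceeded Cla97C01G008760 in 2 of 15 clnor libraries, replicates 2 and 3 at 10 DAP, and in 0 of 15 WT libraries. Genes of 1 family can share reads, and how reads matching several members were assigned is not given in the sources used here, so the split of the sum among them is uncertain.

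**Figure D3:**
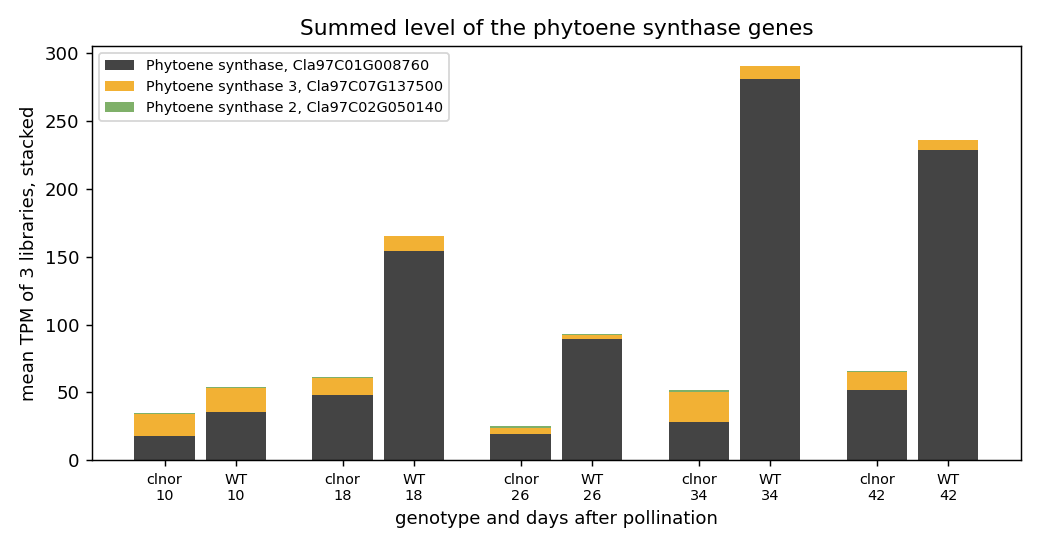
Mean TPM of the 3 phytoene synthase genes stacked per group (linear axis from 0, n = 3 libraries each), clnor left of WT at each age. The clnor bars at 34 and 42 DAP reach 51.6 and 65.7 TPM with a visible part from phytoene synthase 3, while the WT bars reach 290.8 and 236.2 TPM and are nearly all Cla97C01G008760.

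Phytoene desaturase 3, Cla97C02G037750, had the narrowest spread of group means among the 5 genes, the highest mean being 1.51 times the lowest in clnor and 1.28 times in WT. It ranged from 6.52 to 13.39 TPM over clnor libraries (median 9.48) and from 6.71 to 11.79 TPM over WT libraries (median 8.61). At 26 DAP it read 12.14, 9.93 and 13.39 TPM in clnor, against 8.08, 8.87 and 8.3 TPM in WT. That was the only age at which the genotypes did not overlap. The difference there was 0.44 (95% interval 0.09 to 0.78) and was not called (adjusted p 0.0814), nor was 0.35 at 34 DAP (adjusted p 0.0975), which passed without clnor 34 DAP replicate 3 (0.48, adjusted p 0.0443).

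The differences of phytoene desaturase 3 (Cla97C02G037750) at 10, 18 and 42 DAP were -0.07, 0.06 and 0.12 (adjusted p 0.951, 0.885 and 0.644). Without both replicate 3 libraries it was -0.14 at 18 DAP (adjusted p 0.674) and 0.14 on average (adjusted p 0.126). On average it was 0.18 (95% interval 0.03 to 0.34, adjusted p 0.0509), at the edge of the threshold. It passed without any of 8 libraries, clnor 10 DAP replicate 1, replicate 2 of clnor 18 and 26 DAP, replicate 3 of clnor 34 and 42 DAP, WT 10 DAP replicate 2 and replicate 1 of WT 18 and 34 DAP (0.19 to 0.21, adjusted p 0.0206 to 0.0499), and was 0.02 after quantile normalization (adjusted p 0.878). With age, the rise in clnor from 10 to 26 DAP was its only call (0.54, adjusted p 0.0155). That call was lost in a fit of the 2 groups alone (adjusted p 0.0988), without clnor 10 DAP replicate 1 (0.43, adjusted p 0.0796) and without clnor 26 DAP replicate 3 (0.45, adjusted p 0.0746).

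Zeta-carotene desaturase, Cla97C06G118930, was higher at 34 and 42 DAP than at 10 DAP in both genotypes and was not called between them at any age. At 10 DAP it read 28.29, 34.21 and 32.13 TPM in clnor, against 31.04, 42.88 and 44.13 TPM in WT. At 42 DAP it read 87.61, 83.54 and 92.51 TPM in clnor, against 80.12, 105.69 and 97.13 TPM in WT. The clnor and WT libraries overlapped at both of these ages. Against 10 DAP, 42 DAP was called by 1.45 in clnor (adjusted p 2.51e-06) and by 1.25 in WT (adjusted p 7.83e-06), and 34 DAP by 1.08 in clnor (adjusted p 1.75e-04) and by 1.05 in WT (adjusted p 6.47e-05).

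Between those ages zeta-carotene desaturase read 40.22, 42.26 and 77.42 TPM in clnor, against 56.99, 55.76 and 54.95 TPM in WT at 18 DAP, and 49.59, 53.59 and 53.87 TPM in clnor, against 40.11, 36.09 and 46.74 TPM in WT at 26 DAP. At 34 DAP it read 77.71, 66.53 and 60.37 TPM in clnor, against 90.37, 85.06 and 70.27 TPM in WT. The genotypes did not overlap at 26 DAP, where clnor lay above WT, and overlapped at 18 and 34 DAP. At 18 DAP the overlap came from clnor replicate 3 alone.

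The genotype differences of zeta-carotene desaturase (Cla97C06G118930) were -0.30, -0.13, 0.35, -0.26 and -0.09 from 10 to 42 DAP (adjusted p 0.626, 0.749, 0.212, 0.277 and 0.748). On average it was -0.09 with a 95% interval of -0.26 to 0.08 (adjusted p 0.406). Without both replicate 3 libraries it was -0.44 at 18 DAP (adjusted p 0.0721) and -0.15 on average (adjusted p 0.0645). At 34 DAP, where Cla97C01G008760 stood at -3.26, the interval was -0.64 to 0.12. The F test over ages was not called (F = 2.001, adjusted p 0.253), and it was called without clnor 18 DAP replicate 3 (F = 4.65, adjusted p 0.0322).

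In clnor the 18 and 26 DAP levels of Cla97C06G118930 were called above 10 DAP (0.68, adjusted p 0.0292, and 0.72, adjusted p 0.00433), and in WT the 18 DAP level was (0.51, adjusted p 0.0361) and the 26 DAP level was not (0.07, adjusted p 0.803). In WT the step from 26 to 34 DAP was called (0.98, adjusted p 2.97e-04). The 18 DAP call in clnor was lost in a fit of the 2 groups alone (0.391), without clnor 10 DAP replicate 1 (0.60, adjusted p 0.139) or 2 (0.74, adjusted p 0.0965) and without clnor 18 DAP replicate 3 (0.38, adjusted p 0.196). The 18 DAP call in WT was lost in a fit of the 2 groups alone (0.0816), after quantile normalization (0.0534), without WT 10 DAP replicate 1 (0.35, adjusted p 0.204) and without any 1 WT 18 DAP library (adjusted p 0.0518 to 0.0921). Against younger WT fruit, clnor at 42 DAP stood 1.09 above WT at 26 DAP (adjusted p 1.26e-04), and clnor at 34 DAP stood 0.27 above WT at 18 DAP without a call (adjusted p 0.26).

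In order of the means, WT at 42 DAP was highest for zeta-carotene desaturase (94.3 ± 13.0 TPM), followed by clnor at 42 DAP (87.9 ± 4.49), WT at 34 DAP (81.9 ± 10.4) and clnor at 34 DAP (68.2 ± 8.79, SD, n = 3 each), each overlapping its neighbour in that order. The lower groups were WT and clnor at 18 DAP, clnor at 26 DAP, WT at 26 and 10 DAP, and clnor at 10 DAP. In this order the neighbours that did not overlap were clnor 34 and WT 18 DAP, and clnor 26 and WT 26 DAP.

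Per transcript length, the synthase was mostly below the desaturase in clnor and mostly above it in WT. Cla97C01G008760 exceeded zeta-carotene desaturase in 1 of 15 clnor libraries, 18 DAP replicate 3, and in 13 of 15 WT libraries, all but replicates 1 and 2 at 10 DAP. At 34 DAP the ratio of synthase to desaturase TPM was 0.361 to 0.479 in clnor, against 2.92 to 4.32 in WT. At 42 DAP it was 0.563 to 0.610 in clnor, against 2.20 to 2.68 in WT, and at 10 DAP 0.418 to 0.910 in clnor, against 0.757 to 1.09 in WT, the only of these 3 ages at which the ratios overlapped. Over the 30 libraries the log2 levels of these 2 genes had a Pearson r of 0.593, and within genotypes 0.743 over the 15 clnor and 0.856 over the 15 WT libraries. These values describe libraries that share fruit age and are given with no p.

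**Figure D4:**
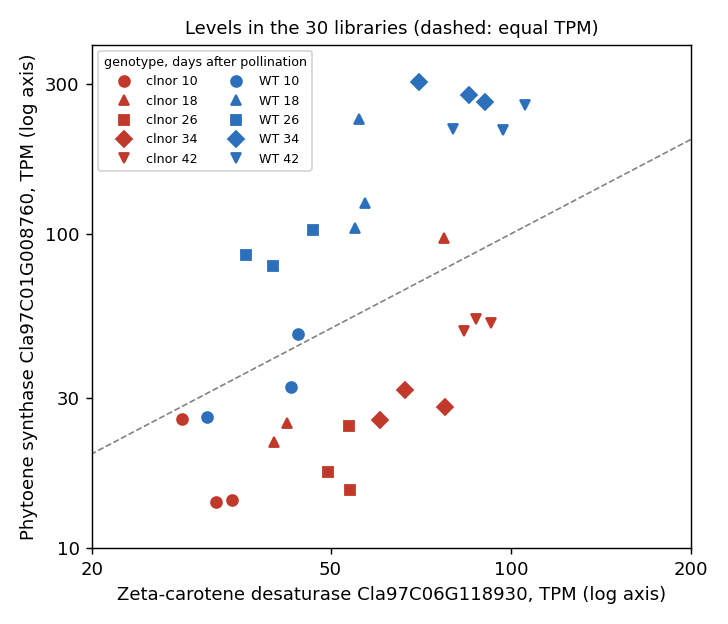
TPM of phytoene synthase Cla97C01G008760 (vertical log axis) against zeta-carotene desaturase (horizontal log axis) in the 30 libraries, clnor in red and WT in blue with a symbol for each age; the dashed line marks equal TPM. Of the clnor libraries 1 lies above the line, and of the WT libraries 13 do.

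The other genes described for these steps were found by search words in the descriptions, 8 in the table, of which 6 were tested. Among them 3 were called higher in clnor on average and 0 lower, with 3 not called, where 31.8% of all genes were higher and 16.4% lower. Their median difference was 0.15 against 0.09 over all genes. The 2 genes under the filter were described as beta-carotene isomerase D27, and so was 1 of the tested genes. D27 is known to act on beta-carotene on the way to strigolactones, so these were matched by their words and not by a role in lycopene synthesis.

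Phytoene desaturase Cla97C07G142100, whose description has no number, had the highest mean TPM of the 3 phytoene desaturase genes in both genotypes at 26, 34 and 42 DAP. It read 64.37, 74.66 and 70.87 TPM in clnor, against 40.07, 40.81 and 55.24 TPM in WT at 26 DAP, its lowest age in each genotype. No library overlapped there, and the difference was 0.63 (SE 0.203, adjusted p 0.0373). That call was lost without any of 5 libraries, each clnor replicate (adjusted p 0.0613, 0.111 and 0.0917) and WT replicate 1 (0.137) or 2 (0.138), and with the replicate block (0.0521). On average the difference was 0.26 (adjusted p 0.0215), and at 34 DAP it was 0.17 (adjusted p 0.553), with 126.8 ± 41.0 TPM in clnor and 109.3 ± 8.22 TPM in WT (SD, n = 3 each).

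Another desaturase gene, Cla97C10G198770, described as 15-cis-phytoene desaturase, chloroplastic/chromoplastic, was lower at 42 than at 10 DAP in each genotype and was called higher in clnor at 34 DAP and on average. At 10 DAP it read 173.44, 252.39 and 221.15 TPM in clnor, against 116.95, 79.43 and 92.36 TPM in WT. At 26 DAP it read 21.04, 13.43 and 30.09 TPM in clnor, against 9.76, 8.5 and 16.8 TPM in WT, and the genotypes overlapped. At 34 DAP it read 28.09, 55.82 and 55.36 TPM in clnor, against 5.3, 8.67 and 10.46 TPM in WT. At 42 DAP it read 13.46, 17.14 and 25.98 TPM in clnor, against 7.23, 8.81 and 6.99 TPM in WT. The genotypes did not overlap at 10, 34 or 42 DAP. The difference was called by limma at 34 DAP (2.35, SE 0.635, adjusted p 0.00511) and on average (1.43, adjusted p 2.36e-04). It was not called at 10 DAP (1.16, adjusted p 0.56) or 42 DAP (1.15, adjusted p 0.175). At 18 DAP the replicate 3 libraries stood apart again, with 114.98, 130.08 and 18.27 TPM in clnor, against 16.94, 5.66 and 71.62 TPM in WT. Against 10 DAP it fell by 3.48 on the log2 scale at 42 DAP in clnor (adjusted p 1.79e-04) and by 3.47 in WT (adjusted p 9.87e-05).

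Among the 3 genes described as phytoene desaturases, phytoene desaturase 3 gave a small part of the summed TPM. Its share of their sum was 2.32 to 2.68% in clnor and 3.55 to 5.22% in WT at 10 DAP, and 10.1 to 12.4% in clnor and 10.3 to 15.3% in WT at 26 DAP, where the sum was lowest. The sum averaged 103.3 ± 9.57 TPM in clnor and 65.5 ± 12.9 TPM in WT at 26 DAP, and 167.5 ± 15.1 TPM in clnor and 121.6 ± 4.36 TPM in WT at 42 DAP (SD, n = 3 each).

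The isomerases gave few genotype calls. The 15-cis-zeta-carotene isomerase Cla97C07G142750, which acts between the desaturases, averaged 85.5 ± 17.7 TPM in clnor and 60.7 ± 6.53 TPM in WT at 42 DAP, a difference of 0.47 that was not called (adjusted p 0.143). Against 10 DAP it was called higher at 42 DAP in clnor (1.68, adjusted p 1.31e-05) and in WT (1.09, adjusted p 7.09e-04). Carotenoid isomerase Cla97C10G200950, which gives all-trans lycopene, averaged 30.0 ± 3.34 TPM in clnor and 23.7 ± 0.668 TPM in WT at 34 DAP (0.32, adjusted p 0.0416, SD, n = 3 each). Its calls were weak: the average difference of 0.15 (adjusted p 0.034) was lost after quantile normalization (0.08, adjusted p 0.242), with upper-quartile scaling (0.11, adjusted p 0.0822) and in 12 of 30 leave-outs (adjusted p up to 0.0642), and the 34 DAP call in 5 of 6 leave-outs (adjusted p up to 0.175). The second carotenoid isomerase gene, Cla97C10G190930, averaged 5.76 ± 0.470 TPM in clnor, against 4.55 ± 1.15 TPM in WT at 42 DAP and was not called (average 0.15, adjusted p 0.115). The tested D27 gene, Cla97C09G167450, averaged 29.1 ± 4.39 TPM in clnor, against 41.2 ± 3.56 TPM in WT at 42 DAP (-0.50, adjusted p 0.0499, SD, n = 3 each). That call was lost in 5 of 6 leave-outs (adjusted p up to 0.163) and, among others, with a pseudocount of 0.1 (adjusted p 0.0518).

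**Figure D5:**
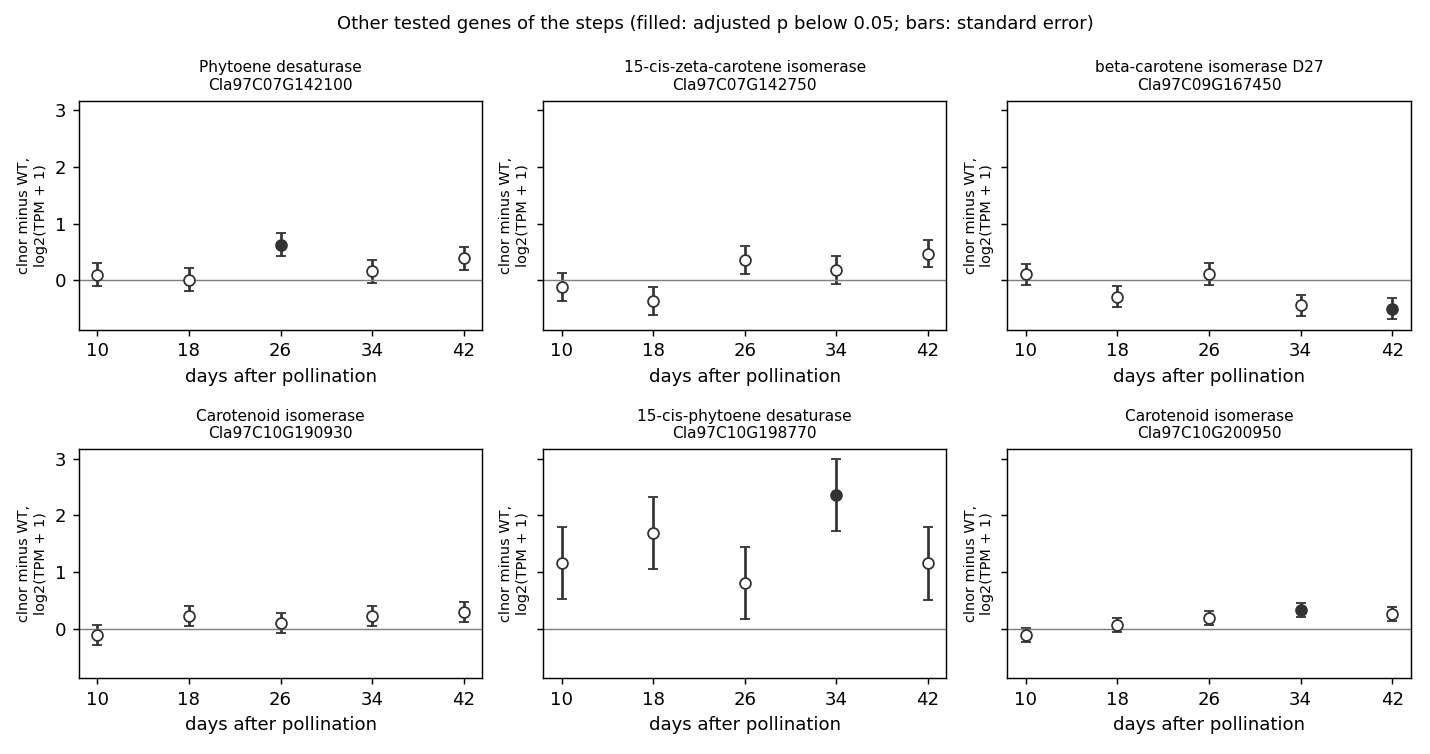
Difference of clnor minus WT in log2(TPM + 1) at each age for the 6 other tested genes of the steps, with standard errors; filled points are called. The 15-cis-phytoene desaturase gene Cla97C10G198770 lies highest, at 2.35 at 34 DAP, and the remaining genes lie within 0.63 of 0.

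Genes around these steps were called in both directions. Counts, and the averages in brackets, are of the log2 difference averaged over the 5 ages, beside the TPM at the age named. That age differs between genes, and the adjusted p in brackets does not test the TPM at it. Over all genes 31.8% were called higher and 16.4% lower in this average. For the supply of the isoprenoid precursor, 4 of 24 tested genes were called higher and 5 lower in clnor, with 15 not called (median -0.01 against 0.09 over all genes). Cla97C02G032350, described as the diphosphate reductase that ends the plastid precursor pathway, averaged 275.1 ± 22.4 TPM in clnor, against 886.9 ± 117 TPM in WT at 34 DAP (average -1.12, adjusted p 6.14e-08). An earlier enzyme gene of the same pathway, Cla97C10G191240, was lower as well (8.97 ± 1.15 TPM in clnor and 28.8 ± 6.50 TPM in WT at 34 DAP, average -0.99, adjusted p 3.21e-07). The kinase gene of the next step, Cla97C03G064510, was higher (34.6 ± 7.99 TPM in clnor and 13.6 ± 0.367 TPM in WT at 34 DAP, average 0.67, adjusted p 2.41e-07). A geranylgeranyl pyrophosphate synthase gene, Cla97C09G173590, whose product is the substrate of phytoene synthase, averaged 7.14 ± 2.42 TPM in clnor, against 2.26 ± 0.337 TPM in WT at 26 DAP (average 0.94, adjusted p 4.28e-06). Geranylgeranyl reductase Cla97C02G050520, of chlorophyll and tocopherol side chains, was not called (average 0.20, adjusted p 0.0642), and passed without any 1 of 6 libraries (lowest adjusted p 0.0356).

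Past lycopene, 4 of 13 tested lycopene cyclase and xanthophyll genes were called higher and 4 lower, with 5 not called (median -0.04), against 31.8% and 16.4% of all genes. The search words missed a gene described as lycopene beta/epsilon cyclase, which is in neither these counts nor the median. Of the 4 higher, 1 is the lycopene beta-cyclase gene Cla97C10G193770, which entered the test only through clnor libraries. With a filter at 5 TPM 5 genes of this list were called in place of 8. Beta-carotene hydroxylase Cla97C05G090480, which makes zeaxanthin, averaged 334.9 ± 44.8 TPM in clnor, against 1506 ± 97.2 TPM in WT at 34 DAP (average -1.34, adjusted p 1.61e-09). The zeaxanthin epoxidase gene Cla97C08G156320 averaged 11.8 ± 0.138 TPM in clnor, against 35.5 ± 2.29 TPM in WT at 34 DAP (average -1.07, adjusted p 1.12e-10), and violaxanthin de-epoxidase Cla97C11G216330, which runs the opposite step, averaged 6.67 ± 2.38 TPM in clnor, against 12.04 ± 1.32 TPM in WT (average -0.53, adjusted p 1.49e-04). The NEOXANTHIN-DEFICIENT 1 gene Cla97C07G138580, needed for neoxanthin, averaged 6.67 ± 2.01 TPM in clnor, against 0.530 ± 0.0964 TPM in WT at 34 DAP (average 0.97, adjusted p 4.02e-06, SD, n = 3 each).

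Of 5 tested genes of carotenoid cleavage 3 were called higher and 2 lower on average, against 31.8% and 16.4% of all genes, and 3 were called with a filter at 5 TPM. Of the 3 higher, 2 (Cla97C03G058030 and Cla97C06G117340) entered the test only through clnor libraries, so their calls and the list's median are no support. Those named were all described as 9-cis-epoxycarotenoid dioxygenases, which cut epoxycarotenoids on the way to abscisic acid. Cla97C07G137780 averaged 72.7 ± 14.7 TPM in clnor, against 1.85 ± 0.226 TPM in WT at 34 DAP (average 2.69, adjusted p 1.72e-09). Cla97C07G137260 averaged 38.0 ± 26.7 TPM in clnor, against 553.8 ± 150 TPM in WT at that age (average -1.73, adjusted p 4.12e-05), and Cla97C01G024630 averaged 3.05 ± 2.34 TPM in clnor, against 36.6 ± 1.55 TPM in WT (average -1.48, adjusted p 2.87e-04, SD, n = 3 each). By single ages, Cla97C01G024630 was called at 34 DAP only (-3.38, limma adjusted p 3.46e-04). Cla97C03G058030 stayed at or under 1.92 TPM in clnor and 0.96 TPM in WT, and was listed at 0 in the WT libraries at 42 DAP.

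Of 13 tested genes of plastid carotenoid storage and stability, 6 were called higher and 0 lower, with 7 not called (median 0.21), against 31.8% and 16.4% of all genes. These were matched by words such as plastid lipid-associated protein, which coats carotenoid-holding plastoglobules, and include the desaturase Cla97C10G198770, matched by the word chromoplastic. Plastid lipid-associated protein Cla97C07G141590 averaged 191.8 ± 17.2 TPM in clnor, against 126.4 ± 11.1 TPM in WT at 42 DAP (average 0.32, adjusted p 9.19e-05). Cla97C10G200370 averaged 57.6 ± 5.93 TPM in clnor, against 39.9 ± 6.29 TPM in WT (average 0.27, adjusted p 0.0076), and Cla97C02G049840 averaged 4.36 ± 0.657 TPM in clnor, against 2.57 ± 0.898 TPM in WT (average 1.07, adjusted p 2.60e-07, SD, n = 3 each). At 42 DAP itself Cla97C02G049840 was not called (0.61, limma adjusted p 0.0956). Cla97C07G141590 and Cla97C10G200370 were called there (adjusted p 0.00109 and 0.0241) and not at 34 DAP (adjusted p 0.225 and 0.138).

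Each member was set beside the genes whose log2 levels followed it most closely over the 30 libraries, among described genes with a mean of at least 5 TPM. For Cla97C01G008760 these were a flavin-containing monooxygenase gene, Cla97C08G156280 (Pearson r = 0.972), a serine/threonine-protein phosphatase 2A activator gene, Cla97C11G220180 (0.965), and a receptor kinase 2 gene, Cla97C10G200460 (0.964). For zeta-carotene desaturase they were an FTSH metalloprotease gene, Cla97C05G096290 (0.970), a protoporphyrinogen oxidase gene, Cla97C01G007610 (0.963), and a pheophorbide a oxygenase gene, Cla97C01G012850 (0.954). The closest genes had r of 0.876 for phytoene synthase 2 (Cla97C05G093690, transcription factor), 0.885 for phytoene synthase 3 (Cla97C03G053270, protein indeterminate-domain 2) and 0.810 for phytoene desaturase 3 (Cla97C05G093290, PfkB family kinase). Libraries share fruit age and genotype, so such values describe likeness over the pooled libraries and carry no p. Within genotypes, r was 0.885 in clnor and 0.577 in WT for the gene closest to phytoene desaturase 3. It was 0.722 in clnor and 0.777 in WT for the gene closest to phytoene synthase 2. For the 3 genes closest to zeta-carotene desaturase it was 0.948 or more in each genotype.

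Markers of flesh and of other tissues moved with the groups too. The summed level of the 7 flesh genes was 861 to 1169 TPM in clnor and 2739 to 3574 TPM in WT at 34 DAP, and 1136 to 1546 TPM in clnor and 4221 to 5160 TPM in WT at 42 DAP. It was 993 to 1410 TPM in clnor and 882 to 1018 TPM in WT at 10 DAP, 1134 to 1405 TPM in clnor and 1494 to 2192 TPM in WT at 18 DAP, and 900 to 1119 TPM in clnor and 1580 to 2250 TPM in WT at 26 DAP. Most of this sum came from 1 gene, Cla97C04G070460, with means of 784 TPM in clnor and 2878 TPM in WT at 34 DAP. At that age Cla97C08G152060 also had a lower mean in clnor (2.27 against 4.06 TPM). The other flesh genes had higher means in clnor there, such as Cla97C02G036390 (65.4 against 38.3 TPM). The 22 phloem genes summed to 111 to 1005 TPM in clnor and 90.7 to 151 TPM in WT at 34 DAP, where 9 of 22 averaged at least 1 TPM in clnor and 7 in WT, and 7 and 8 were listed at 0 in all 3 libraries. The 22 epidermis and cuticle genes summed to 76.8 to 169 TPM in clnor and 98.3 to 121 TPM in WT, with 8 in clnor and 7 in WT at 1 TPM or more and 5 and 6 listed at 0. The 138 seed genes summed to 3794 to 4362 TPM in clnor and 6271 to 7594 TPM in WT, with 62 in clnor and 56 in WT at 1 TPM or more, and 55 and 57 listed at 0. The seed sums overlapped between the genotypes at the other 4 ages, at 42 DAP with 3337 to 3998 TPM in clnor and 3722 to 4048 TPM in WT. The phloem sums overlapped at all 5 ages. The epidermis and cuticle sums overlapped at all 5 ages, at 26 DAP by a narrow margin with 85.6 to 156 TPM in clnor and 73.7 to 87.0 TPM in WT. On average over ages, where 31.8% of all genes were higher and 16.4% lower, 1 flesh gene was called higher and 2 lower in clnor, of 7 tested, and 5 phloem genes higher and 0 lower of 17, with 12 not called. Of the epidermis and cuticle genes 5 were called higher and 2 lower of 12, and of the seed genes 14 higher and 11 lower of 77. Of these calls 1 phloem and 1 seed gene, both higher, entered the test only through clnor libraries and 1 epidermis and cuticle gene, lower, only through WT libraries. The part of these tissues in the differences of the members was not tested.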

How the data were processed

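The authors deposited 1 table of TPM values per gene and library, with a description for each gene; that the values are TPM was read from the table and its sums of 970727 to 985840 per library. Total RNA came from a Trizol extraction with RNeasy clean-up and DNase I, and libraries from a TruSeq kit, per the labels' protocols. The aligners TopHat2 and HISAT2 and the assemblers Cufflinks and StringTie are named per the submitters' processing notes without an order; the sources used here give no version or genome build. Depth per library is unknown. Columns were matched to samples by their names, with 0 columns of other samples.

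From the deposited TPM, log2(TPM + 1) was fitted with limma 3.58.1 (trend and robust empirical Bayes, 20 residual degrees of freedom) in R 4.3.3, as 1 model over 10 groups. The 6093 genes without 1 TPM in 3 libraries were left out. Compared were clnor with WT, by age and on average, their change with age, ages within a genotype, and clnor against younger WT. Tests were two-sided, with Benjamini-Hochberg adjustment over all genes within each contrast, and were tested on simulated data.

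Members and lists were chosen with earlier results of these data known. Lists were search words in descriptions; they missed a gene described as lycopene beta/epsilon cyclase and matched some genes by word alone. Named were all genes of the steps and, per other list, up to 4 with the smallest average p and the smallest at each age; for likeness, 3 genes per member were taken. Sequences of the members are not shown here. Alternatives were other pseudocounts (0.1 and 0.5), filters, scalings and fits, a replicate block and leaving out libraries. At most 5.01% of tested values were identical in any 2 libraries.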

Additional observations from a re-analysis of the deposited data

Results flagged for a closer look

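The genotype difference of phytoene synthase Cla97C01G008760 changed with age (limma F = 4.84, adjusted p 0.0312), by -2.31 on the log2 scale between 10 and 34 DAP (adjusted p 0.00319). Phytoene synthase 3, Cla97C07G137500, changed the other way (F = 4.52, adjusted p 0.038), by 1.32 between 10 and 34 DAP (adjusted p 0.00697). Both were flagged because the difference between genotypes itself differed between ages. Such a change was common: the F test called 23.1% of all genes, and the change from 10 to 34 DAP 23.9%. With 1 library left out, the F call was lost in 8 of 30 fits for Cla97C01G008760 and in 13 of 30 for phytoene synthase 3. The F values without single libraries ran from 3.72 to 11.04 for Cla97C01G008760 and from 3.62 to 8.15 for phytoene synthase 3. Groups of 3 libraries were too small to single out a library by its gap to the others.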

How the results depend on the processing

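Over 1001 values of the members under other settings, 969 kept direction and side of the threshold, 13 lost and 13 gained a call and 6 turned. Over 930 with 1 library left out, 850 kept them, 42 lost and 19 gained a call and 19 turned. In the model over 10 groups, 0 of the results that turned had been called.

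With quantile normalization phytoene desaturase 3, Cla97C02G037750, turned at 18 (-0.0879), 34 (-0.0443) and 42 DAP (-0.0515), the carotenoid isomerase Cla97C10G190930 on average (-0.11) and Cla97C01G008760 in clnor from 10 to 26 DAP (-0.0226). Phytoene desaturase 3 at 18 DAP also turned without both replicate 3 libraries (-0.14), and the change of zeta-carotene desaturase, Cla97C06G118930, from 10 to 34 DAP with upper-quartile scaling (-0.0342). The average of phytoene desaturase 3 gained a call with a filter at 5 TPM (0.18, adjusted p 0.0491), a common TPM sum (0.19, adjusted p 0.0441) and without trend and robust moderation (0.18, adjusted p 0.0458). The F test of phytoene synthase 3, Cla97C07G137500, lost its call with a pseudocount of 0.1 (4.06, adjusted p 0.0525) and quantile normalization (3.28, adjusted p 0.0979). That of zeta-carotene desaturase gained one without both 18 DAP replicate 3 libraries (4.41, adjusted p 0.0348). The cause was not tested. Phytoene synthase 2, Cla97C02G050140, was not tested under the 5 TPM filter, which left fewer genes in the lists.

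With 1 library left out, F ran from 3.72 to 11.04 for Cla97C01G008760, 3.62 to 8.15 for Cla97C07G137500 and 1.27 to 4.65 for Cla97C06G118930. The average of Cla97C02G037750 ran from 0.151 to 0.2103, its difference at 10 DAP from -0.198 to 0.0407 and at 18 DAP from -0.0813 to 0.215. At 18 DAP Cla97C07G137500 ran from -0.157 to 0.373 and Cla97C06G118930 from -0.43 to 0.0339. The change of Cla97C06G118930 since 10 DAP ran from -0.132 to 0.332 at 18 DAP and from -0.0677 to 0.195 at 34 DAP. Its step from 18 to 26 DAP in clnor ran from -0.128 to 0.336 and that from 10 to 26 DAP in WT from -0.0919 to 0.155. Cla97C01G008760 ran from -0.0757 to 0.383 between 10 and 26 DAP in clnor.

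Counts over all genes moved most at the early ages. At 10 DAP 78 genes were called, and 0 to 162 under other settings and 13 to 309 with 1 library left out. At 18 DAP 387 were called, 0 in a fit of the groups alone, 3391 without both replicate 3 libraries and 9 to 2196 with 1 left out. At 26 DAP 2552 were called, 1488 without WT replicate 2 and 1682 without clnor replicate 1. In fits of the groups alone, counts against 10 DAP in clnor were 0 at 18 DAP (1168 in the model of all groups), 3452 at 26 DAP (5748), 1361 at 34 DAP (3995) and 3893 at 42 DAP (6441). In WT they were 2373 at 18 DAP (5328). The step from 18 to 26 DAP in WT gave 3519 (6093), that from 26 to 34 DAP in clnor 1312 (2612), and clnor at 34 DAP against WT at 18 DAP 2255 (5643). These fits hold fewer libraries.

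Replicate numbers did not pair clnor with WT libraries: 4 of 15 same-numbered pairs deviated together with r over 0.1 (-0.407 to 0.247). With the replicate block (correlation -0.0767) Cla97C01G008760 averaged -2.09 (adjusted p 2.40e-09), no genotype call of a member changed, and 51 genes were called at 10 DAP and 244 at 18 DAP.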
